A study of Mus musculus with 12 samples.

Results

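The heat shock proteins, DNAJ proteins and CCT subunits were described here as 83 genes of the 25897 gene symbols in the count table. They were the rows whose symbol starts with Hspa, Hspb, Hspd, Hspe, Hsph, Hsp90 or Dnaj, the rows named Cct with a digit, and Tcp1, which encodes the first CCT subunit. No symbol had to be dropped as a numbered pseudogene. Cct6a was not analysed here. RNA came from E14tg2a mouse embryonic stem cells of 129SV background, which carry a cRAF-ERT2 construct: the RAF kinase is fused to a modified estrogen receptor domain, so that 4-hydroxytamoxifen (4OHT) switches on RAF and, through it, ERK. All 12 cultures came from maintenance in serum, LIF and the GSK3 inhibitor Chir99021 at 2 µM. For the last 24 h before treatment Chir99021 was replaced by PD173074 at 250 nM, which blocks FGF receptors, with serum and LIF kept. Every culture, untreated ones included, also received 5 mM ethynyl uridine for 15 min before harvest. Clones a, b and c each gave 1 untreated culture and cultures after 1, 2 and 4 h of 250 nM 4OHT, so each of the 4 groups held 3 clones. The times come from the titles, and the labels' protocol gives the dose with 2 h alone. The controls were left untreated, with no vehicle named in the labels, so addition of 4OHT and activation of the construct cannot be told apart. Groups were compared over the 3 clones, which are of 1 line and recur in every group. The main fit does not use this pairing, and its p-values measure the spread between libraries within groups. With clone as a block, p-values measure how far the change varies between clones.

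Molecular chaperones bind unfolded or partly folded proteins and release them in a form that can fold. HSP70 proteins do so in cycles of ATP binding and hydrolysis, in which J-domain (DNAJ) proteins deliver the client and stimulate hydrolysis, while HSP110 proteins and other exchange factors remove ADP. HSP90 completes the folding of kinases, RAF among them, and of steroid receptors, whose ligand-binding domain is held by HSP90 until hormone binds. TRiC, a ring of CCT subunits, folds actin and tubulin, and dedicated sets of chaperones serve the endoplasmic reticulum (ER) and the mitochondrial matrix. After proteotoxic stress the factor HSF1 raises the cytosolic genes, and the unfolded protein response raises the ER genes.

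Libraries held 24213641 to 31435301 counts, of which the chaperone genes took 2.40% to 2.65%. Levels are CPM, counts scaled to a common library size after correction of library sizes by TMM (edgeR's trimmed mean of M-values), given as mean ± SD of 3 clones or for clones a, b and c in that order. Log2 changes are given ± SE from edgeR's quasi-likelihood model of all 12 libraries, with p-values adjusted over all 14185 genes tested and a threshold of 0.05. Stem cell identity was checked with 8 markers, which were all present and summed to 4307 to 4699 CPM in untreated cultures and to 4287 to 4307 CPM at 4 h. Within this sum Nanog went from 699 ± 38.4 to 282 ± 36.3 CPM and Utf1 from 23.1 ± 8.37 to 69.9 ± 7.36 CPM. Markers of feeder fibroblasts summed to 6.72 to 7.72 CPM in untreated cultures and to 14.0 to 28.4 CPM at 4 h, with Col1a1 at 0.159 to 1.23 CPM. Of these, Thy1 went from 3.42 ± 0.454 to 17.0 ± 7.37 CPM and Pdgfrb from 3.34 ± 0.118 to 1.73 ± 0.724 CPM. Markers of primitive endoderm summed to 246 to 393 CPM in untreated cultures and to 358 to 507 CPM at 4 h. Most of it was Sparc, at 304 ± 72.2 and 426 ± 72.6 CPM, while Gata4 went from 2.36 ± 0.852 to 1.55 ± 0.782 CPM and Pdgfra from 2.77 ± 1.56 to 1.77 ± 0.627 CPM. The part of these cells in the results was not tested. In RNA from whole cultures, fewer cells of a type and less RNA per cell cannot be told apart.

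The 3 genes Dnajb3, Dnajb7 and Hspb3 had 0 counts in all 12 libraries. Another 4 genes had 4 to 97 counts in total (Dnajc5g, Dnajb8, Hspb7 and Hspb9), and these 7 were not tested. The other 76 passed the filter on low counts. Per kb of exon sequence the highest level belonged to Hsp90ab1, the constitutive cytosolic HSP90, at 2105 CPM per kb over all libraries. Hsp90aa1, the second cytosolic HSP90, followed at 458 CPM per kb, then Cct2 at 437, Cct5 at 426 and Cct8 at 384 CPM per kb. The mitochondrial Hspa9 (320 CPM per kb), the ER protein Hsp90b1 (310 CPM per kb) and the HSP110 protein Hspa4 (288 CPM per kb) came next. The stress-inducible HSP70 genes were low, with Hspa1b at 1.64 and Hspa1a at 0.213 CPM per kb, against 84.6 CPM per kb for the constitutive Hspa8. Levels of genes that share sequence are uncertain. Of the 50-base stretches of Hspa1b, Hspa1a, Hspa1l and Hspa8 transcripts, 62.3% to 74.8% also occur, on either strand, in transcripts of other genes. For Hspa1l the other gene was mainly Gm10501, which overlaps it on the other strand. The same share was 58.5% for Hsp90aa1, 51.6% for Hspb1, 44.8% for both Hspd1 and Hspe1 and 42.8% for Dnajb6. It was 51.9% for Dnaja4, all with Wdr61, which overlaps Dnaja4 on the other strand.

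At 1 h of 4OHT none of the 76 genes passed the threshold, where 0.0775% of all genes tested did. By unadjusted edgeR p below 0.05 there were 9, a cut at which the share of all genes was not taken. DESeq2 called 0, where it called 0.938% of all genes. With clone as a block 4 genes were higher (Dnajb1, Dnajb12, Hspb1 and Hspbp1) and none lower, against 6.99% of all genes, 5.41% higher and 1.58% lower. At 2 h 13 of 76 genes (17.1%) passed, 8 higher and 5 lower, where 16.2% of all genes passed, 9.56% higher and 6.64% lower. At 4 h 24 genes (31.6%) passed, 13 higher and 11 lower, where 33.1% of all genes passed, 18% higher and 15.1% lower. The share of chaperone genes called was thus near that of all genes at each time. With clone as a block the counts were 32 at 2 h (24 higher and 8 lower), where 40.6% of all genes passed, 20.6% higher and 20% lower. They were 37 at 4 h (21 higher and 16 lower), where 52% of all genes passed, 26.2% higher and 25.7% lower. Under scaling by library totals alone, the median of all genes shifted to -0.14 at 2 h and -0.13 at 4 h. The splits of chaperone genes became 2 higher and 7 lower at 2 h and 5 higher and 14 lower at 4 h. Under that scaling 15.5% of all genes passed at 2 h and 33.5% at 4 h, and their split by direction was not taken.

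**Figure D1:**
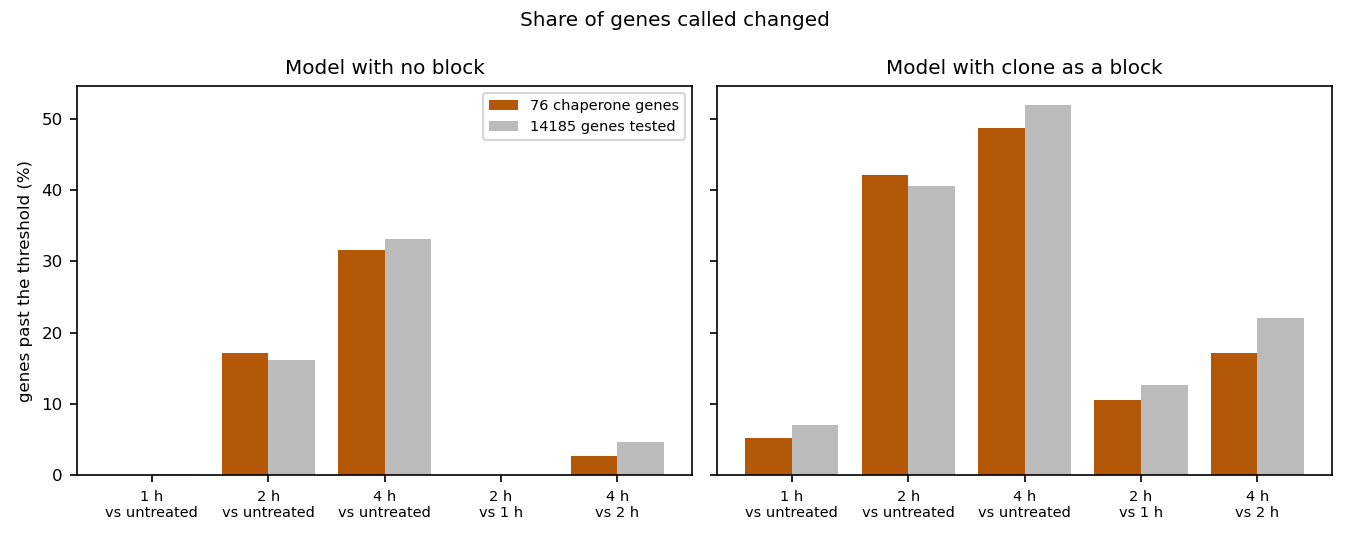
Share of genes past the threshold, in percent, for the 76 chaperone genes tested (brown) and all 14185 genes tested (grey), in the model with no block (left) and with clone as a block (right). The paired bars differ little, such as 17.1% against 16.2% at 2 h and 31.6% against 33.1% at 4 h with no block.

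Most changes were small. At 4 h 62 of the 76 genes differed from untreated by less than 0.5 on the log2 scale, and 3 genes called differed by at least 1: Dnajb5 was higher and Hspa12a and Hspb8 were lower. The shares of all genes tested at these sizes were not taken. The median log2 change of the chaperone genes was 0.08 at 2 h and 0.08 at 4 h, beside a median of -0.02 over all genes at both times. The 47 tested genes called at neither 2 h nor 4 h lay between -0.45 and 0.50 at 4 h, and between -0.83 and 0.79 at 2 h. In all, 29 genes were called at 2 h or 4 h, 8 of them at both: Dnajb5, Dnaja1, Hsph1, Hspa8 and Cct2 higher, and Hspb8, Dnajb6 and Dnajc22 lower. The 2 h and 4 h comparisons share the untreated cultures, and the share of all genes called at either or both times was not taken. Over the 3 treated times together, the F test called 16 chaperone genes (21.1%), where 27.4% of all genes passed, and 41 with clone as a block, where 56.8% did. None of the 13 calls at 2 h held without the untreated clone b library or without the 2 h clone b library, and 1 (Hspa13) held without that of clone c at 2 h. Adjusted p where these calls ended was 0.0501 to 0.196. The share of all genes that passed at 2 h fell to 4.32%, 2.63% and 2.35% in these 3 refits. The count at 2 h was 5 without untreated a, 4 without untreated c and 8 without 1 h c or 4 h c, where 7.3%, 8.92%, 11.2% and 11.3% of all genes passed. At 4 h the count was 14 without 4 h b and 11 without 4 h c, where 21.2% of all genes passed in each. The F test count was 5 without 4 h c (14.8% of all genes), 8 without untreated b (18.2%), 9 without 2 h b (21%), 10 without 1 h c (20.1%) and 10 without 4 h b (18.6%). The 4 h calls that held without each single library numbered 11 of 24, and they are named below. How many calls of all genes held in this way was not counted.

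**Figure D2:**
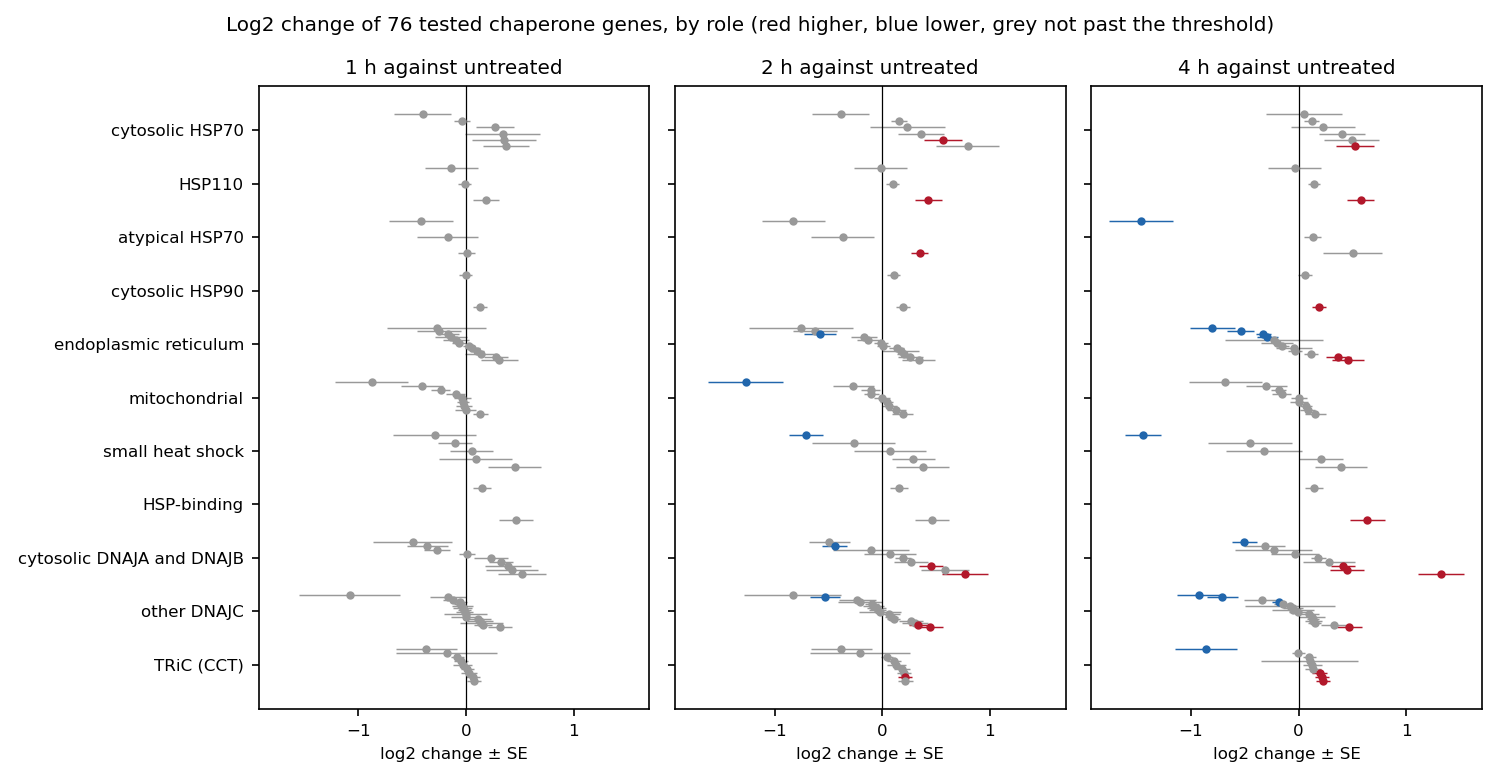
Log2 change ± SE of the 76 tested chaperone genes at 1, 2 and 4 h of 4OHT against untreated, 1 point per gene, grouped by role on the vertical axis, with genes past the threshold in red (higher) or blue (lower). Points past the threshold appear from 2 h, and at 4 h those farthest from 0 are Dnajb5 at 1.32, Hspb8 at -1.45 and Hspa12a at -1.46.

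Cytosolic HSP70 genes: among the 6 genes of this role, Hspa8 rose at 2 h and 4 h, and no other passed the test in either direction. Hspa8 encodes HSC70, the constitutive HSP70 that also uncoats clathrin vesicles (chromosome 9, 40800984 to 40810087, plus strand). It stood at 271, 273 and 309 CPM in the untreated clones, 279.7, 356 and 392 CPM at 1 h, 320.4, 419 and 520.4 CPM at 2 h and 346, 472 and 409 CPM at 4 h. Clones b and c were the higher libraries after treatment, and the treated groups at 2 h and 4 h did not overlap the untreated one. The difference was a log2 change of 0.56 ± 0.18 (edgeR adjusted p = 0.0491) at 2 h and a log2 change of 0.53 ± 0.18 (edgeR adjusted p = 0.0382) at 4 h. The Hspa8 call at 4 h ended without any 1 of 6 libraries, those of untreated a, b and c, 1 h b and 4 h b and c (adjusted p of 0.0509 to 0.141). Hspa1b, the heat-inducible HSP70, moved from 3.56 ± 0.644 CPM untreated to 6.15 ± 1.56 CPM at 2 h and 4.15 ± 1.69 CPM at 4 h. Its 2 h difference was a log2 change of 0.79 ± 0.30 (edgeR adjusted p = 0.0865, and 0.00931 with clone as a block). Hspa1a stayed between 0.356 and 0.950 CPM in all libraries, and Hspa2 and Hspa1l, best known from testis, between 1.03 and 7.20 CPM. Hspa14, which works at the ribosome, showed a log2 change of 0.16 ± 0.07 (edgeR adjusted p = 0.143, and 0.0185 with clone as a block) at 2 h and a log2 change of 0.12 ± 0.07 (edgeR adjusted p = 0.201, and 0.0390 with clone as a block) at 4 h. The snoRNA genes inside Hspa8 cover 6.09% of its exon bases. The 6 genes together summed to 457 ± 12.9 CPM untreated, 615 ± 102 CPM at 2 h and 599 ± 74.7 CPM at 4 h, of which Hspa8 made up most.

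HSP110 and exchange factors: HSP110 proteins are relatives of HSP70 that act mainly as its nucleotide exchange factors. Hsph1 rose at 2 h and 4 h (chromosome 5, 149614287 to 149636376, minus strand), while Hspa4 and Hspa4l did not pass the test. Hsph1 stood at 273, 229.7 and 268 CPM in the untreated clones, 269, 291 and 317 CPM at 1 h, 311, 358 and 367 CPM at 2 h and 309, 439 and 402 CPM at 4 h. Clone a was the lowest at 4 h, and all 4 h libraries lay above all untreated ones. Relative to untreated it had a log2 change of 0.43 ± 0.12 (edgeR adjusted p = 0.0404) at 2 h and a log2 change of 0.58 ± 0.12 (edgeR adjusted p = 0.00539) at 4 h, and the 4 h call held without each single library. Hspa4, the most abundant of the role, went from 1529 ± 84.6 to 1689 ± 49.1 CPM, a log2 change of 0.14 ± 0.06 (edgeR adjusted p = 0.0864, and 0.0470 with clone as a block). Hspbp1, another exchange factor for HSP70 and a gene that the symbol prefix took in, rose at 4 h. It stood at 20.0, 25.4 and 31.6 CPM in the untreated clones, 34.3, 34.7 and 36.9 CPM at 1 h, 30.3, 35.2 and 40.6 CPM at 2 h and 35.1, 40.5 and 44.3 CPM at 4 h. The 4 h libraries all lay above the untreated ones, with clone a the lowest untreated library, and the difference was a log2 change of 0.64 ± 0.16 (edgeR adjusted p = 0.0107). This call too held without each single library. At 1 h the difference was a log2 change of 0.46 ± 0.16 (edgeR adjusted p = 0.325, and 0.0135 with clone as a block). Hspbap1, whose product binds HSPB1, was also taken in by the prefix and showed a log2 change of 0.14 ± 0.09 (edgeR adjusted p = 0.222) at 4 h.

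**Figure D3:**
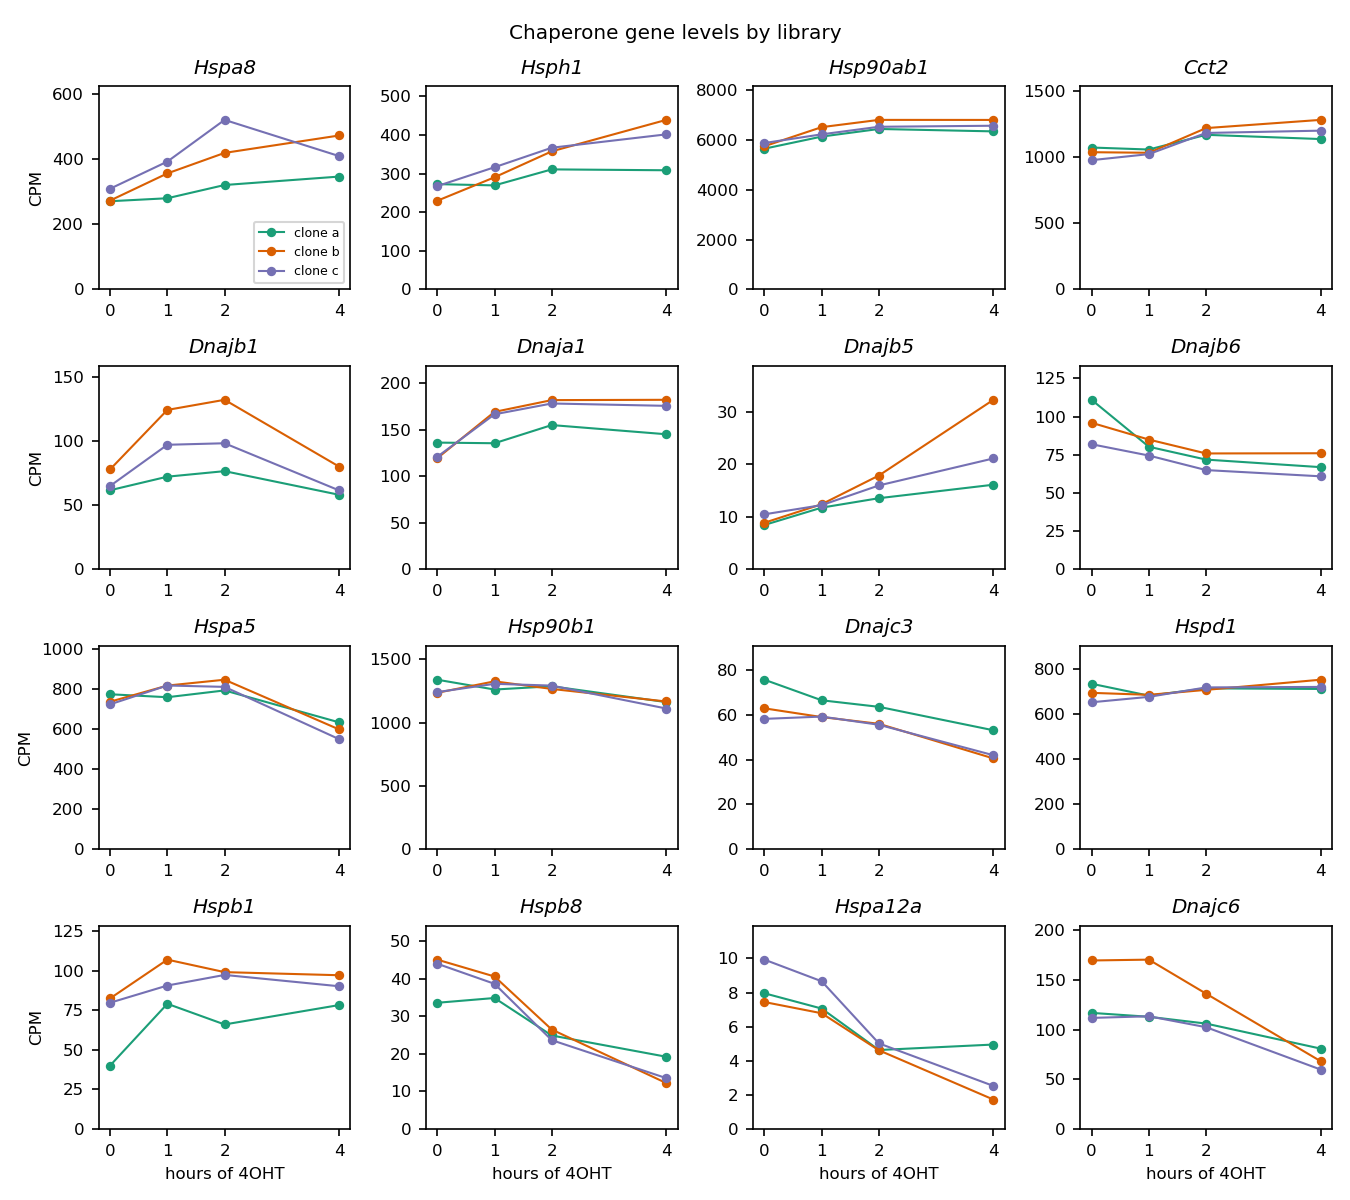
Level in CPM of 16 chaperone genes against hours of 4OHT, 1 line per clone, each panel with its own vertical axis from 0. Hspb8 and Dnajc6 fall between 2 h and 4 h in all 3 clones, Dnajb5 rises most in clone b, to 32.3 CPM, and Dnajb1 is higher at 1 h and 2 h than at 0 h and 4 h in each clone.

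Cytosolic HSP90: Hsp90ab1 rose at 4 h by a small amount on a large level (chromosome 17, 45567775 to 45573271, minus strand). It stood at 5657, 5756 and 5885 CPM in the untreated clones, 6144, 6524 and 6234 CPM at 1 h, 6450.1, 6815 and 6538 CPM at 2 h and 6353, 6814 and 6580.1 CPM at 4 h. Every treated library lay above every untreated one, and the difference was a log2 change of 0.13 ± 0.06 (edgeR adjusted p = 0.480) at 1 h, a log2 change of 0.20 ± 0.06 (edgeR adjusted p = 0.0577, and 0.0113 with clone as a block) at 2 h and a log2 change of 0.19 ± 0.06 (edgeR adjusted p = 0.0392) at 4 h. The Hsp90ab1 call at 4 h ended without any 1 of 10 libraries, those of untreated a, b and c, 1 h a, b and c, 2 h b and c and 4 h b and c (adjusted p of 0.0530 to 0.130). Hsp90ab1 lost the 4 h call under scaling by library totals. Hsp90aa1, the stress-responsive form, went from 1748 ± 78.1 CPM to 1879 ± 47.9 CPM at 2 h and 1822 ± 85.5 CPM at 4 h, and did not pass at any time. Both genes together summed to 7514 ± 36.8 CPM untreated and 8404 ± 315 CPM at 4 h.

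TRiC: of the 9 genes named for this ring, 3 rose at 4 h (Cct2, Cct5 and Cct7) and 1 fell (Cct6b), and Cct2 also rose at 2 h. With clone as a block Cct3, Cct5 and Cct7 were higher at 2 h as well. The 7 abundant subunits (Cct2, Cct3, Cct4, Cct5, Cct7, Cct8 and Tcp1) lay between 751 and 1337 CPM in all 12 libraries. Cct2 stood at 1075, 1039 and 979 CPM in the untreated clones, 1059.9, 1035 and 1025 CPM at 1 h, 1171, 1222 and 1185 CPM at 2 h and 1139, 1284 and 1203 CPM at 4 h. The 2 h and 4 h libraries did not overlap the untreated ones, and clone a moved least. The difference was a log2 change of 0.21 ± 0.06 (edgeR adjusted p = 0.0437) at 2 h and a log2 change of 0.23 ± 0.06 (edgeR adjusted p = 0.0169) at 4 h. The Cct2 call at 4 h ended without untreated c or 4 h b or c (adjusted p of 0.0550 to 0.0798). At 2 h Cct5 showed a log2 change of 0.21 ± 0.07 (edgeR adjusted p = 0.0553, and 0.00514 with clone as a block), Cct7 a log2 change of 0.20 ± 0.07 (edgeR adjusted p = 0.0588, and 0.00826 with clone as a block) and Cct3 a log2 change of 0.18 ± 0.07 (edgeR adjusted p = 0.109, and 0.0135 with clone as a block). Cct7 showed at 4 h a log2 change of 0.22 ± 0.07 (edgeR adjusted p = 0.0291) and Cct5 a log2 change of 0.20 ± 0.07 (edgeR adjusted p = 0.0478). The Cct7 call at 4 h ended without untreated a or c or 4 h b or c (adjusted p of 0.0621 to 0.132). The Cct5 call at 4 h ended without any 1 of 11 libraries, those of untreated a, b and c, 1 h a, b and c, 2 h a, b and c and 4 h b and c (adjusted p of 0.0536 to 0.205). Under scaling by library totals none of these 3 calls held at 4 h, with log2 changes of 0.12 for Cct2, 0.10 for Cct7 and 0.08 for Cct5, and Cct8 stood at -0.01. Cct4, Cct8 and Tcp1 did not pass, with log2 changes at 4 h of -0.0016, 0.10 and 0.13, and Cct3 showed a log2 change of 0.13 ± 0.07 (edgeR adjusted p = 0.183, and 0.0383 with clone as a block). Cct6b, a testis form of the sixth subunit, went from 1.99 ± 0.524 CPM to 1.097 ± 0.162 CPM, a log2 change of -0.86 ± 0.29 (edgeR adjusted p = 0.0404). The Cct6b call at 4 h ended without any 1 of 6 libraries, those of untreated b and c, 1 h a, 2 h c and 4 h b and c (adjusted p of 0.0511 to 0.150). Cct8l1, the other low gene of the role, lay at 0.17 CPM per kb.

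Cytosolic DNAJA and DNAJB proteins: 9 of the 12 genes of this role were tested, and at 4 h Dnajb5, Dnaja1 and Dnajb2 rose and Dnajb6 fell. Dnajb5 showed the largest rise of any chaperone gene (chromosome 4, 42949814 to 42959425, plus strand). It stood at 8.45, 8.88 and 10.5 CPM in the untreated clones, 11.8, 12.4 and 12.2 CPM at 1 h, 13.6, 17.9 and 16.0 CPM at 2 h and 16.1, 32.3 and 21.1 CPM at 4 h. Groups at successive times did not overlap up to 2 h, and clone b at 4 h was the highest library by far. Compared with untreated it showed a log2 change of 0.77 ± 0.22 (edgeR adjusted p = 0.0355) at 2 h and a log2 change of 1.32 ± 0.22 (edgeR adjusted p = 0.00124) at 4 h, and the 4 h call held under every alternative run, with log2 changes of 0.98 to 1.53. Dnaja1, a J-domain partner of HSC70, stood at 136, 119 and 121 CPM in the untreated clones, 135, 169 and 166 CPM at 1 h, 155, 182 and 178 CPM at 2 h and 145, 182 and 175 CPM at 4 h. Clones b and c were already higher at 1 h, clone a was not, and the difference was a log2 change of 0.45 ± 0.11 (edgeR adjusted p = 0.0241) at 2 h and a log2 change of 0.42 ± 0.11 (edgeR adjusted p = 0.0148) at 4 h. The Dnaja1 call at 4 h ended without untreated b or 4 h b or c (adjusted p of 0.0531 to 0.0628). Dnajb2, which has ubiquitin-interacting motifs, went from 6.73 ± 1.09 to 9.21 ± 1.23 CPM, a log2 change of 0.45 ± 0.16 (edgeR adjusted p = 0.0473). The Dnajb2 call at 4 h ended without any 1 of 9 libraries, those of untreated a and b, 1 h a and c, 2 h a, b and c and 4 h a and c (adjusted p of 0.0521 to 0.176).

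Dnajb6, which holds back the aggregation of polyglutamine proteins, moved the other way (chromosome 5, 29735688 to 29818134, plus strand). It stood at 111, 95.9 and 81.9 CPM in the untreated clones, 80.2, 84.9 and 74.5 CPM at 1 h, 71.8, 75.8 and 64.9 CPM at 2 h and 66.9, 76.0 and 60.9 CPM at 4 h. Clone a was the highest untreated library, and the 2 h and 4 h libraries lay below all untreated ones. The difference was a log2 change of -0.44 ± 0.12 (edgeR adjusted p = 0.0297) at 2 h and a log2 change of -0.50 ± 0.12 (edgeR adjusted p = 0.00785) at 4 h, and the 4 h call held without each single library. An exon of Gm5129 on the other strand covers 4.11% of the exon bases of Dnajb6. Dnajb1, the major stress-inducible J-domain partner of HSP70, stood at 61.6, 77.8 and 64.9 CPM in the untreated clones, 72.1, 124 and 97.0 CPM at 1 h, 76.4, 132 and 98.2 CPM at 2 h and 58.0, 80.0 and 61.5 CPM at 4 h. In each clone the 1 h and 2 h libraries lay above the untreated and 4 h libraries, but clone b ran higher than the others throughout and the groups overlapped. Against untreated it showed a log2 change of 0.52 ± 0.22 (edgeR adjusted p = 0.406, and 0.0108 with clone as a block) at 1 h, a log2 change of 0.59 ± 0.22 (edgeR adjusted p = 0.0908, and 0.000778 with clone as a block) at 2 h and a log2 change of -0.03 ± 0.22 (edgeR adjusted p = 0.926) at 4 h. From 2 h to 4 h it was a log2 change of -0.62 ± 0.22 (edgeR adjusted p = 0.137, and 0.00120 with clone as a block), so that with clone as a block Dnajb1 rose at 1 h and 2 h and fell again by 4 h. Dnaja2, the most abundant gene of the role, showed a log2 change of 0.19 ± 0.07 (edgeR adjusted p = 0.0874, and 0.0221 with clone as a block) at 2 h and a log2 change of 0.18 ± 0.07 (edgeR adjusted p = 0.0710, and 0.0213 with clone as a block) at 4 h. Dnajb4, at 4.15 CPM on average, showed a log2 change of -0.49 ± 0.19 (edgeR adjusted p = 0.0929, and 0.0311 with clone as a block) at 2 h. Dnaja4 and Dnajb13 lay at 1.43 and 1.00 CPM on average and did not pass.

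HSF1 binds repeats of the unit GAA and its reverse complement TTC. Promoter sequence came from RefSeq (GRCm38.p6), in which 68 of the 83 symbols had at least 1 entry. The symbols with no entry, Hspa8, Hsp90aa1 and Hsp90ab1 among them, were not searched for any motif. Motifs were searched on both strands of the 250 bases before each annotated start. The run of 3 units (GAA, 2 bases of any kind, TTC, 2 bases, GAA) was found in 0.466% of 32851 promoters. Among the 87 chaperone promoters the share was 4.6%, in 3 genes, Hspd1, Hspe1 and Dnajb6. Promoters were counted by entry, so this share does not count separate sites. The Hspd1 and Hspe1 matches are the same bases, as are those of the 2 Dnajb6 entries. The run of 2 units (GAA, 2 bases, TTC), which the first contains, was found in 6.694% of all promoters and 16.1% of chaperone promoters. These were of 13 chaperone genes, among them Hspa1a, Hspa1b, Dnaja1, Hspb1, Cct2 and Dnajc27. Of those named, Hspa1a, Hspb1, Cct2 and Dnajc27 are not shown. The share for 2 units holds the same repeated matches of Hspd1, Hspe1 and Dnajb6. Stretches are shown for Dnajb6 and Dnaja1, both called at 4 h, for the shared Hspd1 and Hspe1 promoter, and for Hspa1b as the heat-inducible HSP70, 5′ to 3′ on the strand of the gene, with the match in capitals. The Hspe1, Dnajb6 and Dnaja1 stretches lie in exons of a GENCODE M21 transcript, that of Hspe1 in an exon of Hspd1.
Hspe1, chr1:55088054-55088081, plus strand: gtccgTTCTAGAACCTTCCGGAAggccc
Dnajb6, chr5:29735847-29735869, plus strand: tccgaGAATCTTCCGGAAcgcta
Dnaja1, chr4:40722339-40722356, plus strand: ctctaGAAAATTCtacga
Hspa1b, chr17:34959330-34959347, minus strand: tgctgGAAGATTCctggc
Of the genes shown, Dnajb6 fell and Dnaja1 rose at 2 h and 4 h, while Hspd1, Hspe1 and Hspa1b passed at neither time with no block. Other motifs were searched too. Shares of all and of chaperone promoters were 3.738% and 13.8% for the NRF1 site, 0.536% and 3.4% for the EGR site and 6.021% and 6.9% for the E-box. They were 33.85% and 35.6% for the CCAAT box, 1.546% and 1.1% for the cAMP response element and 1.467% and 1.1% for the CArG box. Overlapping entries of 1 gene can hold the same site, as those of Dnaja1 do in the EGR and NRF1 shares. All motif matches here are matches of letters and are no evidence of binding.

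ER chaperones: at 4 h 4 of the 12 genes fell (Hspa5, Dnajc3, Dnajb14 and Dnajc18) and 2 rose (Dnajb12 and Dnajc1), and Hspa5 was 1 of 2 chaperone genes that fell from 2 h to 4 h. Hspa5 encodes BiP, the HSP70 of the ER and its most used stress marker (chromosome 2, 34771970 to 34777547, plus strand). It stood at 772, 735 and 722 CPM in the untreated clones, 758, 816 and 816 CPM at 1 h, 792, 845 and 809 CPM at 2 h and 632, 597 and 549 CPM at 4 h. The 4 h libraries all lay below every other library, after levels at 2 h that were all above the untreated ones. The difference from untreated was a log2 change of 0.13 ± 0.07 (edgeR adjusted p = 0.178) at 2 h and a log2 change of -0.33 ± 0.07 (edgeR adjusted p = 0.00401) at 4 h, and from 2 h to 4 h a log2 change of -0.46 ± 0.07 (edgeR adjusted p = 0.00666). The 4 h call held without each single library. Dnajc3, the ER protein also called p58IPK, which brings clients to BiP, stood at 75.6, 62.9 and 58.2 CPM in the untreated clones, 66.5, 59.0 and 59.2 CPM at 1 h, 63.5, 56.0 and 55.5 CPM at 2 h and 53.1, 40.5 and 41.9 CPM at 4 h. All 4 h libraries lay below all untreated ones, with clone a highest at each time, and the difference was a log2 change of -0.54 ± 0.12 (edgeR adjusted p = 0.00747). This call too held without each single library, and the difference from 2 h to 4 h was a log2 change of -0.37 ± 0.12 (edgeR adjusted p = 0.114, and 0.00225 with clone as a block). Hsp90b1, the ER form of HSP90 (GRP94), stood at 1339.8, 1237 and 1242 CPM in the untreated clones, 1262, 1327 and 1307 CPM at 1 h, 1288, 1267 and 1293 CPM at 2 h and 1163, 1168 and 1112 CPM at 4 h. The 4 h libraries lay below all others, but the difference missed the threshold with no block, a log2 change of -0.15 ± 0.06 (edgeR adjusted p = 0.0650, and 0.0320 with clone as a block). Overlapping genes cover 15.7% of the exon bases of Hsp90b1. The 12 ER genes together summed to 2440 ± 99.3 CPM untreated, 2526 ± 10.7 CPM at 2 h and 2150 ± 68.2 CPM at 4 h.

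Hspa5, Dnajc3 and Hsp90b1 also share a promoter feature. The ER stress element (CCAAT, 9 bases of any kind, CCACG), searched on both strands, is bound by ATF6 together with NF-Y. It was found in 0.113% of the 32851 promoters and in 3.4% of the 87 chaperone promoters. Those were of these 3 genes, with 2 matches for Hsp90b1. The matches are shown in capitals, the second Hsp90b1 match as the reverse complement, and the Hspa5 stretch lies in an exon of a GENCODE M21 transcript of the gene.
Hspa5, chr2:34772020-34772048, plus strand: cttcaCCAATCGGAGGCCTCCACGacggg
Dnajc3, chr14:118937822-118937850, plus strand: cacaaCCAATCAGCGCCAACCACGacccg
Hsp90b1, chr10:86705633-86705661, minus strand: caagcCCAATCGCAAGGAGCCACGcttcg
Hsp90b1, chr10:86705528-86705556, minus strand: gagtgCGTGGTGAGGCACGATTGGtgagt
In the 14 listed ER folding partners with a promoter entry, 5 held the element, namely Calr, Canx, Creld2, Pdia6 and Syvn1. Their log2 changes from 2 h to 4 h were -0.22, -0.06, -0.17, -0.14 and -0.03, of which that of Calr passed the test (edgeR adjusted p = 0.0446), and that of Pdia6 with clone as a block (adjusted p = 0.0303). At 4 h against untreated they were -0.14, -0.0029, 0.14, -0.02 and 0.36. None of these passed with no block, while with it Calr was lower (adjusted p = 0.0195) and Syvn1 higher (adjusted p = 0.00459). The grouping by this element was made after these values were seen.

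The other ER J proteins did not move one way. Dnajb14, which with Dnajb12 helps degrade faulty membrane proteins, went from 10.5 ± 0.568 CPM to 6.01 ± 2.18 CPM, a log2 change of -0.80 ± 0.21 (edgeR adjusted p = 0.0128), after a log2 change of -0.62 ± 0.21 (edgeR adjusted p = 0.0588, and 0.0124 with clone as a block) at 2 h. Dnajc18 went from 28.5 ± 1.65 to 23.4 ± 1.70 CPM, a log2 change of -0.29 ± 0.10 (edgeR adjusted p = 0.0452). The Dnajb14 call at 4 h ended without the 4 h c library (adjusted p = 0.0544). The Dnajc18 call at 4 h ended without any 1 of 8 libraries, those of untreated b and c, 1 h a, b and c, 2 h c and 4 h b and c (adjusted p of 0.0530 to 0.138). Dnajb12 went from 26.0 ± 3.32 CPM to 33.6 ± 2.99 CPM, a log2 change of 0.37 ± 0.12 (edgeR adjusted p = 0.0298), and Dnajc1 from 18.3 ± 2.81 to 25.2 ± 3.82 CPM, a log2 change of 0.46 ± 0.15 (edgeR adjusted p = 0.0355). The Dnajb12 call at 4 h ended without untreated a or 4 h b or c (adjusted p of 0.0954 to 0.102). The Dnajc1 call at 4 h ended without untreated a or b or 4 h b or c (adjusted p of 0.0728 to 0.124). Dnajc16 fell at 2 h, a log2 change of -0.58 ± 0.15 (edgeR adjusted p = 0.0282), and stood at 17.5 ± 2.59 CPM at 4 h, beside 20.2 ± 1.80 CPM untreated. Dnajb9 and Dnajb11, soluble partners of BiP, and Dnajc10, a disulfide reductase with a J domain, did not pass at 2 h or 4 h, nor did Dnajc25. With Hsp90b1 these 5 genes lay between -0.75 and 0.20 in log2 change at 2 h and between -0.23 and 0.11 at 4 h.

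Mitochondrial chaperones: none of the 9 genes passed at 4 h, and 1, Dnajc28, fell at 2 h. Hspd1 encodes HSP60, the chaperonin of the matrix, and Hspe1 its lid, HSP10. The genes lie head to head (chromosome 1, 55077835 to 55088243, minus strand, and chromosome 1, 55088132 to 55091307, plus strand). Hspd1 stood at 736, 695 and 653 CPM in the untreated clones, 683, 686 and 677 CPM at 1 h, 715, 709 and 719 CPM at 2 h and 713, 754 and 722 CPM at 4 h. Each treated group overlapped the untreated one, and the difference was a log2 change of 0.07 ± 0.06 (edgeR adjusted p = 0.367) at 4 h, beside a log2 change of 0.01 ± 0.09 (edgeR adjusted p = 0.965) for Hspe1. From 1 h to 2 h Hspe1 showed a log2 change of 0.23 ± 0.09 (edgeR adjusted p = 0.234, and 0.0205 with clone as a block). Dnajc11, Dnajc15, Dnajc19 and Dnajc30 did not pass. The 8 genes of the role other than Dnajc28 lay between -0.27 and 0.19 in log2 change at 2 h and between -0.30 and 0.16 at 4 h. Hspa9, the mitochondrial HSP70 (mortalin), went from 1296 ± 68.8 CPM to 1476 ± 121 CPM at 2 h, a log2 change of 0.19 ± 0.09 (edgeR adjusted p = 0.182, and 0.0333 with clone as a block). Dnaja3, its J-domain partner, went from 136 ± 6.82 to 119.8 ± 8.39 CPM at 4 h, a log2 change of -0.18 ± 0.07 (edgeR adjusted p = 0.0682, and 0.0266 with clone as a block). Dnajc28 stood at 4.13, 4.34 and 3.94 CPM in the untreated clones, 3.02, 1.66 and 2.09 CPM at 1 h, 2.83, 1.09 and 1.25 CPM at 2 h and 2.92, 1.83 and 3.003 CPM at 4 h. Its 2 h difference was a log2 change of -1.27 ± 0.35 (edgeR adjusted p = 0.0335), with clone a nearest to the untreated level, and that at 4 h was a log2 change of -0.68 ± 0.34 (edgeR adjusted p = 0.143, and 0.0317 with clone as a block).

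Small heat shock proteins: the 8 genes of this role are those named Hspb with a number, and 5 were tested. Small heat shock proteins bind unfolding proteins without ATP, which need not hold for each gene so named, Hspb11 among them. Hspb8, which works with BAG3 in clearing damaged proteins by autophagy, fell at 2 h and further at 4 h (chromosome 5, 116408491 to 116422864, minus strand). It stood at 33.6, 45.1 and 44.0 CPM in the untreated clones, 34.9, 40.6 and 38.6 CPM at 1 h, 24.9, 26.5 and 23.7 CPM at 2 h and 19.2, 12.2 and 13.6 CPM at 4 h. Groups at 2 h and 4 h overlapped neither the untreated group nor each other, and clone a moved least. The difference was a log2 change of -0.71 ± 0.16 (edgeR adjusted p = 0.0190) at 2 h, a log2 change of -1.45 ± 0.17 (edgeR adjusted p = 0.000233) at 4 h and a log2 change of -0.74 ± 0.16 (edgeR adjusted p = 0.0300) from 2 h to 4 h. The 4 h call held under every alternative run, with log2 changes of -1.79 to -1.24. Hspb1, which encodes HSP27, stood at 40.1, 82.5 and 79.7 CPM in the untreated clones, 79.1, 107 and 90.6 CPM at 1 h, 66.0, 99.1 and 97.3 CPM at 2 h and 78.3, 97.1 and 90.1 CPM at 4 h. Its untreated clone a library was the lowest of the 12, the groups overlapped, and the difference was a log2 change of 0.45 ± 0.24 (edgeR adjusted p = 0.517, and 0.0451 with clone as a block) at 1 h, a log2 change of 0.38 ± 0.24 (edgeR adjusted p = 0.298, and 0.0288 with clone as a block) at 2 h and a log2 change of 0.39 ± 0.24 (edgeR adjusted p = 0.237, and 0.0145 with clone as a block) at 4 h. The within-clone log2 changes at 4 h were 0.96, 0.24 and 0.18, so clone a gave most of the difference. Hspb2 did not pass. Hspb6 and Hspb11 lay at 1.15 to 3.56 CPM, and Hspb11 showed at 4 h a log2 change of -0.45 ± 0.39 (edgeR adjusted p = 0.401, and 0.0369 with clone as a block).

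Atypical HSP70 proteins: Hspa12a fell at 4 h and Hspa13 rose at 2 h, while Hspa12b did not pass. Hspa12a, a distant relative of HSP70 (chromosome 19, 58795750 to 58943654, minus strand), stood at 7.96, 7.44 and 9.93 CPM in the untreated clones, 7.06, 6.79 and 8.66 CPM at 1 h, 4.63, 4.62 and 5.02 CPM at 2 h and 4.95, 1.73 and 2.53 CPM at 4 h. All 2 h and 4 h libraries lay below all untreated ones, and at 4 h clone a stayed near its 2 h level while clones b and c went lower. Relative to untreated it had a log2 change of -0.83 ± 0.29 (edgeR adjusted p = 0.0720, and 0.0203 with clone as a block) at 2 h and a log2 change of -1.46 ± 0.30 (edgeR adjusted p = 0.00420) at 4 h, and the 4 h call held without each single library. Hspa13, an HSP70-like protein of microsomes, stood at 48.2, 42.9 and 41.2 CPM in the untreated clones, 46.0, 43.6 and 43.5 CPM at 1 h, 58.5, 57.2 and 53.1 CPM at 2 h and 47.4, 51.0 and 46.6 CPM at 4 h. The 2 h libraries lay above all others, with a difference of a log2 change of 0.35 ± 0.08 (edgeR adjusted p = 0.0181) from untreated, and the 4 h difference was a log2 change of 0.13 ± 0.08 (edgeR adjusted p = 0.221). Hspa13 showed a log2 change of 0.34 ± 0.08 (edgeR adjusted p = 0.101, and 0.00892 with clone as a block) from 1 h to 2 h and a log2 change of -0.22 ± 0.08 (edgeR adjusted p = 0.136, and 0.0285 with clone as a block) from 2 h to 4 h.

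Other DNAJC proteins: 16 of 17 genes were tested, and at 4 h Dnajc17 rose and Dnajc6, Dnajc22 and Dnajc13 fell. Dnajc6 encodes auxilin, which recruits HSC70 to clathrin coats, and it stood at 117, 169.6 and 112 CPM in the untreated clones, 113, 170.4 and 113 CPM at 1 h, 106, 136 and 102 CPM at 2 h and 81.0, 68.3 and 59.9 CPM at 4 h. Clone b was the highest in the untreated, 1 h and 2 h groups, and all 4 h libraries lay below all others. The difference was a log2 change of -0.93 ± 0.20 (edgeR adjusted p = 0.00598) at 4 h. Dnajc22 stood at 6.97, 7.01 and 5.71 CPM in the untreated clones, 6.65, 6.33 and 6.72 CPM at 1 h, 5.21, 4.00 and 4.42 CPM at 2 h and 3.92, 3.94 and 4.19 CPM at 4 h, a log2 change of -0.53 ± 0.14 (edgeR adjusted p = 0.0301) at 2 h and a log2 change of -0.71 ± 0.14 (edgeR adjusted p = 0.00377) at 4 h. The 2 h and 4 h libraries of Dnajc22 did not overlap the untreated ones. Dnajc17 went from 11.3 ± 1.67 to 15.7 ± 0.493 CPM, a log2 change of 0.47 ± 0.11 (edgeR adjusted p = 0.00968), and like Dnajc6 and Dnajc22 it kept its 4 h call without each single library. Dnajc13, a protein of endosomes, went from 362 ± 17.7 to 319 ± 16.7 CPM, a log2 change of -0.18 ± 0.06 (edgeR adjusted p = 0.0473). The Dnajc13 call at 4 h ended without any 1 of 10 libraries, those of untreated a, b and c, 1 h b and c, 2 h a, b and c and 4 h a and c (adjusted p of 0.0509 to 0.132).

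Dnajc5 and Dnajc27 rose at 2 h and did not pass at 4 h. Dnajc5 encodes cysteine string protein, which guards SNARE proteins at synapses, and stood at 125, 133 and 122 CPM in the untreated clones, 123, 155 and 138 CPM at 1 h, 149.9, 200.4 and 167 CPM at 2 h and 123, 157 and 133 CPM at 4 h. In each clone the 2 h library was the highest, and the difference from untreated was a log2 change of 0.44 ± 0.12 (edgeR adjusted p = 0.0336) at 2 h and a log2 change of 0.12 ± 0.12 (edgeR adjusted p = 0.465) at 4 h. Dnajc27, a small GTPase with a J domain, went from 37.6 ± 3.32 to 47.4 ± 2.44 CPM at 2 h, a log2 change of 0.34 ± 0.08 (edgeR adjusted p = 0.0237), and stood at 41.4 ± 1.29 CPM at 4 h. From 2 h to 4 h Dnajc5 showed a log2 change of -0.32 ± 0.12 (edgeR adjusted p = 0.156, and 0.00418 with clone as a block) and Dnajc27 a log2 change of -0.20 ± 0.08 (edgeR adjusted p = 0.195, and 0.0328 with clone as a block). Of the 10 genes of this role that passed at neither time, log2 changes lay between -0.83 and 0.30 at 2 h and between -0.34 and 0.33 at 4 h. They include Dnajc4, Dnajc5b, Dnajc9, Dnajc12, Dnajc14 and Dnajc24. With clone as a block Dnajc2, a ribosome-associated protein, and Dnajc8 were higher at 4 h (adjusted p = 0.0304 and 0.0291), and Dnajc7 was lower (adjusted p = 0.0288). Dnajc21, which takes part in making the large ribosomal subunit, showed a log2 change of 0.33 ± 0.12 (edgeR adjusted p = 0.0528, and 0.00375 with clone as a block) at 4 h.

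Between the treated times few chaperone genes passed. From 1 h to 2 h none of 76 did, where 0.0634% of all genes passed, 0.0564% higher and 0.00705% lower. Of the chaperone genes 12 had an unadjusted edgeR p below 0.05, a cut at which the share of all genes was not taken. DESeq2 called 4, where it called 4.05% of all genes. With clone as a block 8 passed, 5 higher and 3 lower, where 12.6% of all genes did, 7.13% higher and 5.46% lower. From 2 h to 4 h 2 passed, both lower (Hspb8 and Hspa5; 2.63%), where 4.68% of all genes passed, 3.27% higher and 1.41% lower. With clone as a block 13 passed in that comparison, 4 higher and 9 lower, where 22% of all genes did, 12% higher and 9.98% lower. The 4 higher were Hspa12b, Dnajb5, Hspa1l and Dnajc16, of which Hspa1l showed a log2 change of 0.88 ± 0.26 (edgeR adjusted p = 0.0792, and 0.0184 with clone as a block). The count was 1 without any single 2 h library (0.896% to 3.54% of all genes), without 4 h b (1.39%) or 4 h c (0.882%), and 6 without 4 h a (10.2%).

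The size of the changes differed between clones. All 24 genes called at 4 h moved in the same direction in the 3 clones, as did all 13 called at 2 h. These genes were picked by a test over the same clones, so their agreement in direction is largely set by the call and adds no support. Clone a had the smallest change of the 3 in 15 of the 24 genes and clone b the largest in 15, and the median absolute log2 change over the 24 genes was 0.39 in clone a, 0.62 in clone b and 0.43 in clone c. The order of the clones was not counted over all genes, so it cannot be called particular to chaperone genes. Hspb8 changed by -0.80, -1.88 and -1.70 and Hsph1 by 0.18, 0.94 and 0.59 in clones a, b and c. The ERK target gene Egr1 changed at 4 h by 1.81, 4.77 and 3.36 in clones a, b and c, whereas Dusp6 changed by 2.40, 2.71 and 2.78. Levels of Esr1, the gene of the estrogen receptor, were 9.44 to 18.6 CPM in clone a, 93.4 to 260 CPM in clone b and 38.8 to 44.4 CPM in clone c. The part of these differences between clones in the chaperone changes was not tested.

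**Figure D4:**
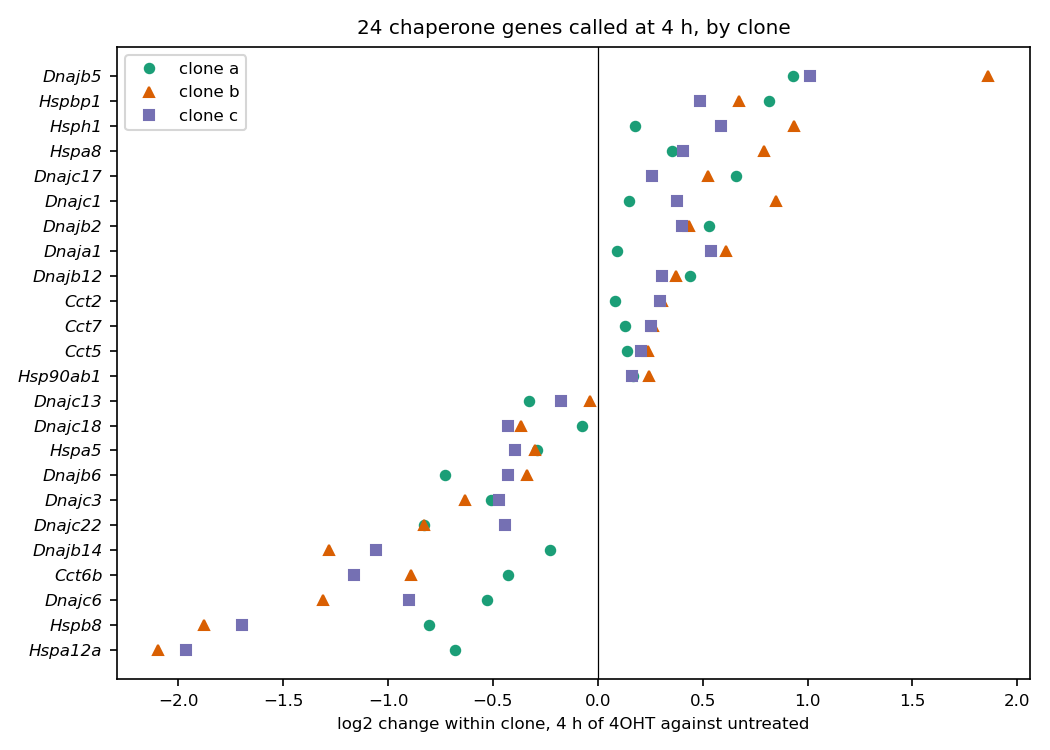
Log2 change within each clone at 4 h of 4OHT against untreated for the 24 chaperone genes called at 4 h, 1 row per gene, with clones a (circles), b (triangles) and c (squares). The 3 symbols of a gene lie on the same side of 0 in all 24 rows, and clone a lies nearest 0 in 15 of them. The genes were picked by a test over these same clones, which favours symbols on the same side.

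Regulators and partners of the chaperones were followed with lists of pathway genes. Of the 6 heat shock factor genes tested, Hsf1 rose at 4 h, going from 31.9 ± 3.93 to 42.6 ± 2.83 CPM, a log2 change of 0.42 ± 0.11 (edgeR adjusted p = 0.0127), and no other passed. No gene of that list passed at 2 h. Of 23 HSP70 and HSP90 co-chaperones tested, 4 rose at 2 h (Bag4, Cdc37, Ppid and Sgta), and at 4 h 6 rose (Bag3, Bag6, Cdc37, Ppid, Sgta and Stub1) and 1 fell (Tsc1). Cdc37, which loads kinases onto HSP90, went from 162 ± 22.6 CPM to 231 ± 6.70 CPM, a log2 change of 0.51 ± 0.10 (edgeR adjusted p = 0.00290). Stub1, the ubiquitin ligase CHIP, differed by 0.69 ± 0.15 at 4 h (edgeR adjusted p = 0.00636). Bag3, the partner of Hspb8, differed by 0.61 ± 0.18 (edgeR adjusted p = 0.0226), in the direction opposite to Hspb8. Tsc1, a co-chaperone of HSP90 best known as an inhibitor of mTORC1, showed a log2 change of -0.35 ± 0.09 (edgeR adjusted p = 0.0135). The Tsc1 call at 4 h ended without untreated c or 4 h b (adjusted p of 0.0502 to 0.0539). The Ppid call at 4 h ended without untreated b or c or 4 h c (adjusted p of 0.0542 to 0.0737). The Cdc37 call at 2 h ended without untreated a or b or 2 h b or c (adjusted p of 0.0682 to 0.114). The Ppid call at 2 h ended without untreated b or c or 2 h b or c (adjusted p of 0.0735 to 0.116).

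Prefoldin hands actin and tubulin to the TRiC ring. Of 9 genes of prefoldin and of other TRiC cofactors, 2 rose at 2 h (Pfdn2 and Pfdn6), and at 4 h 3 rose (Pfdn2, Pfdn4 and Pfdn6) and 1 fell (Pdcl). Pfdn6 went from 68.5 ± 7.56 to 93.7 ± 2.45 CPM, a log2 change of 0.45 ± 0.08 (edgeR adjusted p = 0.00222). The Pfdn4 call at 4 h ended without untreated b or c or 4 h b or c (adjusted p of 0.0638 to 0.0914). The Pfdn2 call at 2 h ended without the 2 h b library (adjusted p = 0.0521). The Pfdn6 call at 2 h ended without 2 h b or c (adjusted p of 0.0766 to 0.0976). Of 18 ER folding partners, 3 rose at 2 h (Creld2, Herpud1 and P4hb), and at 4 h 2 rose (Xbp1 and Atf6) and 3 fell (Manf, Sdf2l1 and Sel1l). Xbp1, a transcription factor of the unfolded protein response, stood at 46.0, 41.6 and 47.9 CPM in the untreated clones, 47.4, 32.8 and 45.5 CPM at 1 h, 67.2, 36.9 and 59.8 CPM at 2 h and 80.7, 77.1 and 102 CPM at 4 h. The 4 h libraries lay above all others, and the difference was a log2 change of 0.94 ± 0.21 (edgeR adjusted p = 0.00593), opposite in sign to that of Hspa5. Manf, an ER stress-induced protein, went from 98.2 ± 4.40 CPM to 79.3 ± 0.930 CPM, a log2 change of -0.31 ± 0.06 (edgeR adjusted p = 0.00279). Herpud1, which serves ER-associated degradation, rose at 2 h, a log2 change of 0.52 ± 0.12 (edgeR adjusted p = 0.0176), and fell from 2 h to 4 h, a log2 change of -0.56 ± 0.12 (edgeR adjusted p = 0.0223), as did Manf and Calr. The Herpud1 call at 2 h ended without untreated b or c or 2 h b or c (adjusted p of 0.0517 to 0.0687). Of 9 mitochondrial folding partners, 2 rose at 2 h (Clpp and Grpel1) and 2 at 4 h (Clpp and Clpb). Clpp, a matrix protease, went from 58.9 ± 9.46 to 87.4 ± 1.84 CPM, a log2 change of 0.57 ± 0.11 (edgeR adjusted p = 0.00262). The Clpp call at 2 h ended without any 1 of 8 libraries, those of untreated a and b, 1 h a, b and c, 2 h b and c and 4 h c (adjusted p of 0.0559 to 0.163). The Grpel1 call at 2 h ended without untreated a, b or c or 2 h b or c (adjusted p of 0.0640 to 0.138). The calls of Bag3, Bag4, Bag6, Stub1, Sgta, Pdcl, Creld2, P4hb, Sel1l, Atf6, Sdf2l1 and Clpb were not recomputed under the alternatives that leave out a library or change the scaling. Of all 65 genes tested on these lists, 11 passed at 2 h and 19 at 4 h, beside 16.2% and 33.1% of all genes tested. Genes named here from counts of 5 or fewer, beyond those of highest rank, were chosen after their values were seen.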

How the data were processed

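RNA-seq libraries of 12 cultures (3 clones at 4 times) were depleted of ribosomal RNA, per the labels' protocols. The authors deposited raw counts per gene symbol, and the submitters' processing notes name STAR, featureCounts, DESeq and the mm10 build. For versions, annotation, strand setting and multi-mapping reads, nothing is given in the sources used here, so overlapping, antisense and near-identical genes can share counts. Deposited totals of 24213641 to 31435301 counts per library limit precision mainly for genes of a few CPM. Differences were fitted with edgeR 4.0.16 (R 4.3.3) by quasi-likelihood on all 12 libraries, with TMM scaling and filterByExpr (minimum count 10, minimum total 15), which left 14185 genes tested and 11712 not tested. Benjamini-Hochberg adjustment ran over all genes tested, with a threshold of 0.05. The test was checked on simulated counts, with no differences between clones and with changes larger than most seen here. That check does not cover paired clones or small changes.

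Clone letters in the titles pair the libraries, and the main fit did not use this pairing. The coefficient of variation was 0.163 in the main fit and 0.0924 with clone as a block. Deviations from group means correlated at 0.176 to 0.653 in the 18 same-clone pairs and at -0.542 to -0.0156 in the 36 pairs of different clones. Deviations cancel within each group, so positive same-clone pairs push pairs of different clones to negative values, and the ranges are not independent. The fit with clone as a block was an alternative, as were other scalings, filters, DESeq2 1.42.0, limma-voom (limma 3.58.1), a test against a 1.5-fold change, the 2 groups alone and leaving out libraries or clones. No 2 libraries agreed within sampling noise (lowest chi-square per degree of freedom 15.7).

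Members, roles, lists and named genes were chosen with earlier results of these data known. Named were, per role, the most abundant gene and up to 2 by F test, the genes called against untreated (at most 12 per direction and time), block-only calls of largest change (5 per comparison), up to 3 genes per pathway list, and Hsf1. Positions are from GENCODE M21 (GRCm38) and promoters from RefSeq.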

Additional observations from a re-analysis of the deposited data

How the results depend on the processing

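The 54 calls of named genes at 2 h and 4 h against untreated were recomputed under 24 alternatives each, 1296 values in all, of which 894 kept their call, 402 did not pass and 0 changed direction. The calls of Dnajb5 and Hspb8 at 4 h were the 2 that passed under all of them. Clone letters pair the libraries, and with clone as a replicate block the number of chaperone genes called was 4 at 1 h, 32 at 2 h, 37 at 4 h, 8 from 1 h to 2 h, 13 from 2 h to 4 h and 41 in the F test. DESeq2 called 21 at 2 h (22.6% of all genes), 4 from 1 h to 2 h (4.05%), 4 from 2 h to 4 h (9.83%) and 31 in the F test (37.2%). A test against a 1.5-fold change called 0 at 2 h (0.571% of all genes), 3 at 4 h (6.41%) and 0 from 2 h to 4 h (0.183%). Fitting the 2 groups alone called 7 at 2 h (10.8% of all genes), 12 at 4 h (23%) and 0 from 2 h to 4 h (0%). Leaving out 1 library or 1 clone gave 0 to 1 calls at 1 h, 0 to 18 at 2 h (0.007% to 22.7% of all genes), 4 to 25 at 4 h (6.43% to 38.6%), 0 to 1 from 1 h to 2 h, 0 to 6 from 2 h to 4 h (0% to 10.2%) and 0 to 19 in the F test (0.189% to 32.5%). At 4 h and in the F test the lowest counts came from leaving out clone c. The cause was not tested. Other scalings, filters and limma-voom kept each count within 1.5 times, but scaling by library totals ended the calls of Hspa8, Hsp90ab1, Cct2, Cct5, Cct7, Dnajb2, Dnajb12 and Dnajc1 at 4 h. It also ended those of Cct2, Hsph1, Hspa8, Hspa13, Dnajc5 and Dnajc27 at 2 h, and among list genes those of Cdc37, Ppid, Pfdn6, Herpud1, Clpp and Grpel1 at 2 h and of Ppid, Pfdn2 and Pfdn4 at 4 h. Genes below about 5 CPM rest on fewer counts, such as Cct6b (27 to 75 per library), Dnajc28 (32 to 134) and Hspa1b (74 to 211). The part of depth in their spread was not tested.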
